A study of Homo sapiens with 22 samples.

Results

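Titin, the largest known human protein, spans the half-sarcomere of striated muscle from Z-disc to M-line and acts as its molecular spring. Its gene TTN is transcribed from the minus strand of chromosome 2, and its messenger RNA is spliced into isoforms that differ mostly in the elastic I-band exons, which are named N2B, N2A and PEVK after protein segments. TTN-AS1 is a long noncoding RNA transcribed from the opposite strand across the 3′ part of TTN. The reads on both genes, on their introns and on the strand opposite to each were followed here in prostate cancer cells with and without androgen.

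The values came from 12 libraries, which are an input and a PSF-RIP library for each of 3 lines and 2 treatments. PSF, also called SFPQ, is a nuclear RNA-binding and splicing protein, and PSF-RIP is sequencing of the RNA that an antibody to PSF brought down from cell lysate. The treatments were the androgen dihydrotestosterone (DHT, 10 nM for 24 h) and its vehicle, ethanol. The lines were LNCaP and 22Rv1, which are established prostate cancer lines kept in medium with untreated serum, and LTAD, a prostate cancer line kept in medium with hormone-stripped serum; the labels do not spell out the name LTAD. All cells spent 3 days in hormone-depleted medium before treatment. Each line, treatment and assay had 1 library, and no label names separate cultures, so the 3 lines served as the replicates of the DHT comparison. A p-value therefore rests on how much the DHT response varied between lines. That spread was pooled over both assays in a fit of all 12 libraries and was partly shared across genes. The fit treated the input and PSF-RIP libraries of a line and treatment as independent, so it does not measure the spread within PSF-RIP alone. A further 4 PSF-CLIP peak lists of LNCaP cells, 2 for each treatment, were also used.

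TTN and TTN-AS1 are 2 of 20294 gene symbols in the files. They hold 558 listed rows, which are 7 TTN and 2 TTN-AS1 transcripts of 48606 in all, 7 and 2 rows for the opposite strand of each, and 520 TTN and 20 TTN-AS1 intron rows, of which 117 and 20 are distinct introns that held at least 1 read. The genes were chosen by their measured values, the TTN reads in the inputs, which were far higher with DHT than with vehicle, so every value of TTN that rests on the inputs is given as a description with no test. The rule has no threshold of expression. Mapped reads numbered 4641602 to 10439461 in the PSF-RIP libraries and 1073228 to 3014049 in the inputs, and a count of 0 allows up to 3 reads, which is 0.287 to 0.646 RPM (reads for each 1000000 mapped reads) in the PSF-RIP libraries and 0.995 to 2.80 in the inputs. The LTAD vehicle input was the shallowest library. The luminal keratin genes KRT8 and KRT18, markers of the labelled prostate epithelial cells, had 59 to 2534 and 66 to 1581 reads in each of the 12 libraries.

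The start of each gene is shown first, because the sequence just upstream is where a hormone-responsive promoter element would be looked for. The 250 bases before the annotated start are from RefSeq on build GRCh38.p14, on the strand of the gene, and the capitals mark every copy of AGAACA or its reverse complement TGTTCT, the half-site of the androgen response element.
TTN, chr2:178807424-178807673, minus strand: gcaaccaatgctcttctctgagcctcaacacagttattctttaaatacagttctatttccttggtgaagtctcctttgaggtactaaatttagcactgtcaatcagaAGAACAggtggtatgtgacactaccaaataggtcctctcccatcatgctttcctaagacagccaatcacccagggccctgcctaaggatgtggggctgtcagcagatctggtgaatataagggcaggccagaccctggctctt
TTN-AS1, first start, chr2:178522577-178522826, plus strand: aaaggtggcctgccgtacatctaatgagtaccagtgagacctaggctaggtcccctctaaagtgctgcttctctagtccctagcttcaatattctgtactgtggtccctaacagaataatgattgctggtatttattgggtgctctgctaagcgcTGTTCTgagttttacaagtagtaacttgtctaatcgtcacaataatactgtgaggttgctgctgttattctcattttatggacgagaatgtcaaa
TTN-AS1, second start, chr2:178522941-178523190, plus strand: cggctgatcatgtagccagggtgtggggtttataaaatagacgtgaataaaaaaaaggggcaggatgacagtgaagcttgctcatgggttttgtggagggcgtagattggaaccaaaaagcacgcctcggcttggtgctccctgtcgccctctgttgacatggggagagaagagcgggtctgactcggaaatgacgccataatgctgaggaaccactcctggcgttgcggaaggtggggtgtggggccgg
Both genes matched the promoter table by symbol. The TTN window held 1 half-site, which began 143 bases before the start, and the first TTN-AS1 window held 1 half-site, which began 95 bases before its start. The second TTN-AS1 window held none. Of 35116 human promoter windows of 250 bases, 4350 (12.4%) held a half-site on either strand, so a half-site is a common feature. The full palindrome, AGAACA and TGTTCT spaced by 3 free bases, was in neither gene's windows and in 1 of the 35116. On the files' build hg19, the palindrome had no copy between the 3′ end of TTN and the 5′ end of its neighbour CCDC141 (chr2:179390717-179914786), against 48 copies on chromosome 2, and half-sites numbered 0.975 per kb in that span against 0.934 per kb over the chromosome. No match says only that these letters are not there.

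TTN (chr2:179390717-179672150 on hg19) was close to silent with vehicle and was read in all 3 lines with DHT, at levels that differed by orders of magnitude between lines. Gene reads were taken from the complete transcript NM_001267550, which has 109223 exonic bases and the most reads of the TTN transcripts. In the PSF-RIP libraries it had 148 reads with DHT and 1 with vehicle in LNCaP, 4 and 0 in 22Rv1, and 4846 and 18 in LTAD. In the inputs it had 21 reads with DHT and 0 with vehicle in LNCaP, 1 and 0 in 22Rv1, and 292 and 1 in LTAD. Every DHT library was above its vehicle partner, although the 22Rv1 pairs differed by 4 reads and 1 read. In bulk libraries, RNA in a few cells and a little RNA in all cells cannot be told apart.

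Scaled by edgeR's library sizes, the PSF-RIP reads with DHT were 216-fold those with vehicle in LTAD, with a 95% interval of 136 to 364 from exact counting error alone. In LNCaP the same ratio was 174, with an interval of 30.8 to 6922 because the vehicle library held 1 read. In 22Rv1, against a floor of 3 reads in the vehicle library, the DHT library was at least 2.19-fold higher, and the exact lower limit of the ratio, with the counting error of its 4 reads, was 1.09. In the inputs the LTAD ratio was 192 (34.3 to 7623), and the LNCaP DHT input was at least 6.88-fold higher than a vehicle input of 3 reads, with an exact lower limit of 5.12. The single 22Rv1 input read gives no ratio. Over the 3 lines together the inputs held 314 reads with DHT and 1 with vehicle, and without LTAD, TTN in the DHT inputs was at least 7.86-fold higher, with a floor of 3 reads over the vehicle group.

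The order of the lines was the same in both assays. With DHT, TTN stood at 558 RPM in LTAD PSF-RIP (exact Poisson 95% interval 542 to 574), 31.9 in LNCaP (27.0 to 37.5) and 0.679 in 22Rv1 (0.185 to 1.74). In the DHT inputs it stood at 184 in LTAD (164 to 206), 12.04 in LNCaP (7.45 to 18.4) and 0.415 in 22Rv1 (0.0105 to 2.31). No interval of one line overlapped that of the next within an assay. With vehicle, LTAD PSF-RIP stood at 2.65 (1.57 to 4.18), and the LNCaP and 22Rv1 vehicle libraries were at or below 3 reads.

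**Figure D1:**
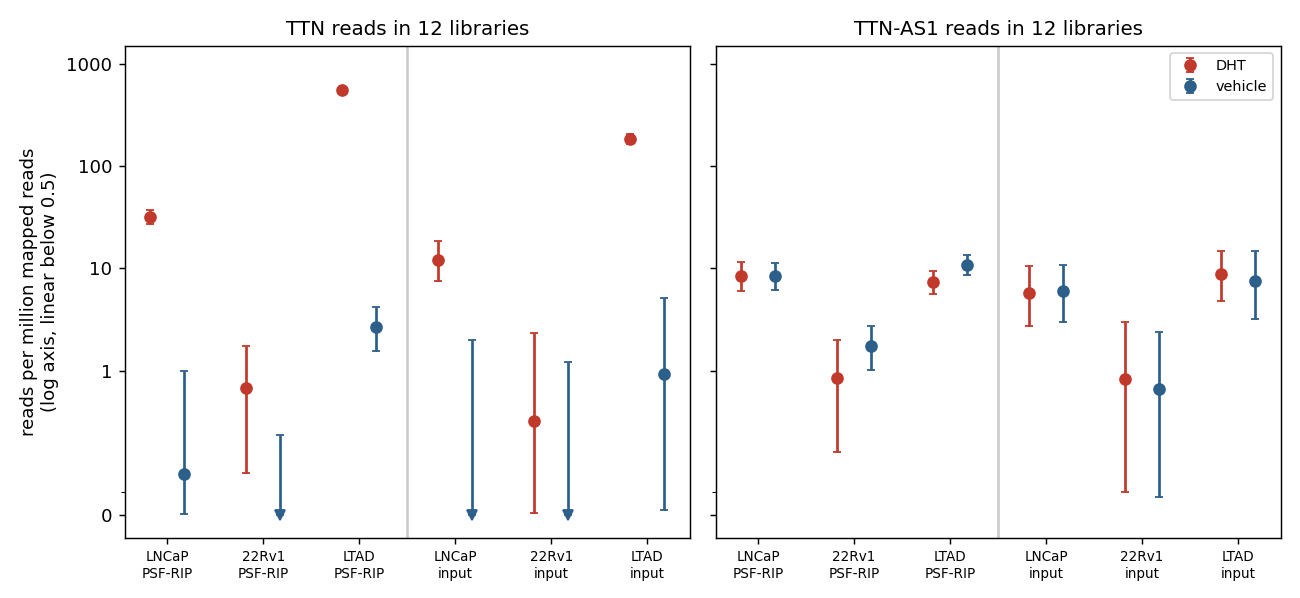
RPM of TTN (left) and TTN-AS1 (right) in each of the 12 libraries, with DHT in red to the left of vehicle in blue. Bars are exact Poisson 95% intervals and triangles mark libraries with 0 reads. TTN with DHT runs from 0.415 in the 22Rv1 input to 558 in LTAD PSF-RIP, while TTN-AS1 stays between 0.664 and 10.9 in all 12.

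Titin's length sets how these reads look. In LTAD PSF-RIP with DHT, TTN ranked 123 by reads among nuclear genes, of which 16818 had a read. Per kb of exon it ranked 8697, at 5.11 RPKM (RPM per kb of exon). In the LTAD DHT input it ranked 598 by reads and 11146 per kb, at 1.69 RPKM. TTN thus gave many reads from a transcript of modest density.

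The DHT response in the PSF-RIP libraries was tested across all genes. These libraries did not enter the choice of TTN, but they share line and treatment with the inputs that did. The values of TTN are therefore not independent of that choice, and its spread in the fit also used the inputs. They are given as a description with no p-value. In edgeR's quasi-likelihood fit of 13776 genes, TTN was higher with DHT by 7.67 on the log2 scale (SE 0.22, 3 lines). It ranked 1 among all genes by size of increase, where 1.5% of genes were called higher and 2.9% were called in either direction. Without LTAD the log2 increase of TTN was 6.94, and in DESeq2 it was 7.21. In the inputs 0.624% of all genes were called, 0.436% higher and 0.189% lower.

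TTN-AS1 was not called with DHT. Its longer transcript NR_038272 (chr2:179387554-179470132, 4592 exonic bases) had 39 reads with DHT and 47 with vehicle in LNCaP PSF-RIP, 5 and 18 in 22Rv1, and 64 and 74 in LTAD. The inputs had 10 and 11 reads in LNCaP, 2 and 2 in 22Rv1, and 14 and 8 in LTAD. TTN-AS1 was thus read in every library, vehicle included, and 22Rv1 was the lowest line in each assay. The edgeR log2 difference of DHT against vehicle in PSF-RIP was -0.42 (SE 0.25, 3 lines, adjusted p = 0.411), which did not pass. DHT over vehicle was 0.693 in LTAD PSF-RIP (95% interval 0.488 to 0.982), 0.457 in 22Rv1 (0.133 to 1.28) and 0.976 in LNCaP (0.622 to 1.52). In the inputs the ratio over the 3 lines was 1.16 (0.626 to 2.16), as a description. The shorter transcript NR_038271 (2069 exonic bases) had at most 20 reads in a library, in LTAD PSF-RIP with DHT, where the vehicle library had 16.

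The whole plus strand across TTN held more reads than the TTN-AS1 exons. It had 138 reads with DHT and 171 with vehicle in LNCaP PSF-RIP, 32 and 108 in 22Rv1, and 259 and 271 in LTAD. In the inputs it held 36 and 45 reads in LNCaP, 8 and 13 in 22Rv1, and 40 and 20 in LTAD. The ratio of DHT to vehicle in PSF-RIP was 0.766 (0.643 to 0.911) in LTAD, 0.488 (0.318 to 0.730) in 22Rv1 and 0.949 (0.753 to 1.19) in LNCaP. In the inputs it was 1.32 (0.752 to 2.38) in LTAD and 1.01 (0.731 to 1.39) over the 3 lines. TTN itself, on the minus strand, was 216-fold higher in LTAD PSF-RIP. Over the first exons of TTN, up to the end of novex-3, the plus strand held 0 to 3 reads in each library, so these reads lay across the 3′ part, where TTN-AS1 is annotated. The minus strand under TTN-AS1, counted as its antisense, carried 3371 DHT reads and 12 vehicle reads within the extent of NR_038272 in LTAD PSF-RIP. These are TTN reads, except for any that lay beyond the 3′ end of TTN.

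Titin reads were spread along the whole gene and were mostly exonic. Each of the 7 TTN transcripts was read, and because their exons are largely nested, differences between rows place the reads. In LTAD PSF-RIP with DHT the complete transcript had 4846 reads. The N2BA-type transcript NM_001256850 (104300 exonic bases) had 4763 and the N2A transcript of skeletal muscle NM_133378 (101518 bases) had 4756. The cardiac N2B transcript NM_003319 (82027 bases) had 4214, as did novex-1 NM_133432 (82402 bases), while novex-2 NM_133437 (82604 bases) had 4216. The short novex-3 transcript NM_133379 (18216 bases), which ends early in the I-band, had 358. The vehicle library of the pair had 18, 18, 18, 16, 16, 16 and 1 reads on the same rows.

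The exon that separates N2BA from N2A is the N2B exon (chr2:179603868-179606648, 2781 bases), which encodes the spring element of cardiac titin. It held 7 reads in LTAD PSF-RIP with DHT and 0 with vehicle, and 1 and 0 in the LTAD inputs. At 2.52 reads per kb it was 24.0-fold lower in density than the last exons, whose count is an upper limit (density ratio 0.0416, exact interval 0.0167 to 0.0858). The exons that N2A has and N2B lacks (22272 bases, mostly of the I-band) held 549 reads, or 24.6 per kb, and 28 reads in the LTAD DHT input. The exons found in the complete transcript alone (4923 bases) held 83 reads, or 16.9 per kb, in LTAD PSF-RIP with DHT, and 13 in the LTAD DHT input. Per kb, the exons of the complete transcript alone thus held fewer reads than the exons that N2A has and N2B lacks in PSF-RIP, and more in the input, with 2.64 against 1.26. The exons unique to novex-1 and novex-2 held 0 and 2 reads there. Reads of exons that are repeated within the PEVK segment can be lost when only uniquely mapped reads are counted, and that share was not tested.

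The ends of the gene were covered unevenly. The first exons, which novex-3 shares (10585 bases), held 296 to 358 reads in LTAD PSF-RIP with DHT, or 28.0 to 33.8 per kb. The large exon that only novex-3 carries (chr2:179609132-179616766, 7635 bases) held at most 62, or 8.12 per kb. The last exons (chr2:179390716-179470022, 55118 bases), which encode most of the A-band and the M-line part, held up to 3335 reads, or 60.5 per kb. Those last exons are 50.5% of the exonic length and held up to 68.8% of the reads (exact binomial interval 67.5% to 70.1%). The counts and shares of the last exons are upper limits. They come from minus-strand reads over the extent of NR_038272, which begins at chr2:179387554, beyond the 3′ end of TTN. The share was 67.5% in the LTAD DHT input (61.8% to 72.8%) and 56.1% in LNCaP PSF-RIP with DHT (47.7% to 64.2%). The PSF-RIP and input shares overlapped in their intervals in LTAD, and the interval in LNCaP PSF-RIP lay below that in LTAD PSF-RIP. The labels name a target enrichment kit for library construction without listing baits, and the part that baits or RNA length could have in this coverage was not tested.

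**Figure D2:**
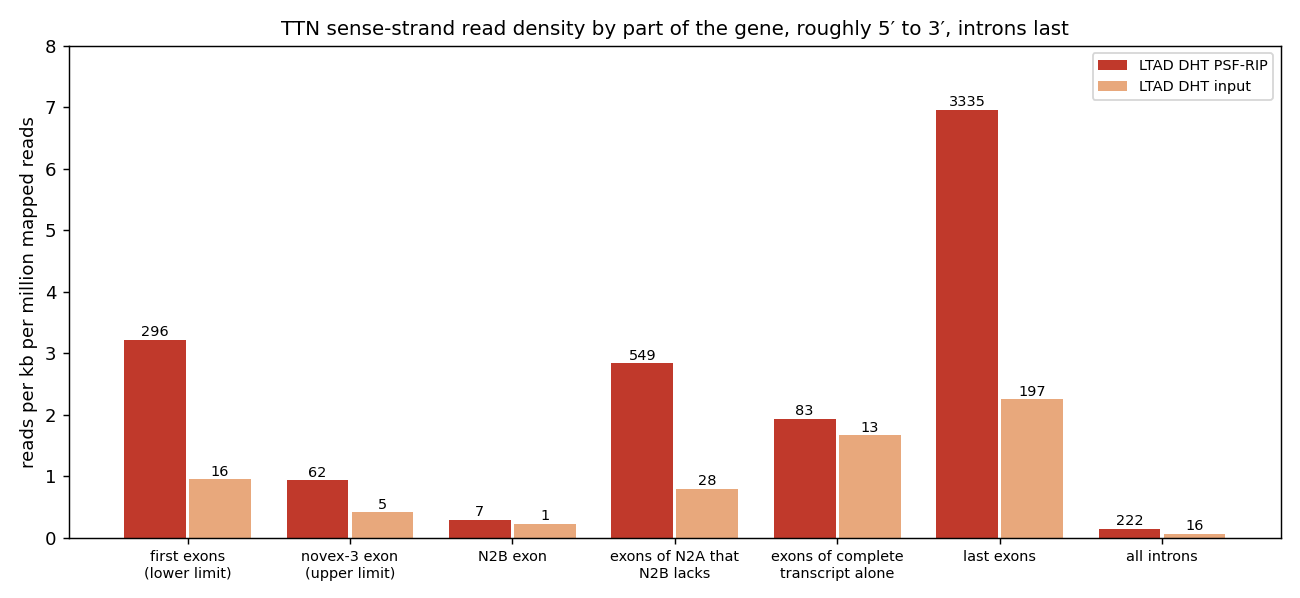
Density of TTN sense-strand reads (RPM per kb) in 7 parts of the gene in the LTAD DHT libraries, PSF-RIP in red and input in orange, with the read count above each bar. The last exons are the highest in both assays, with up to 3335 and 197 reads, and the N2B exon holds 7 and 1.

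Intronic reads were few. Summed over the introns of the complete transcript, LTAD PSF-RIP with DHT had 222 reads and its vehicle library 1, LNCaP PSF-RIP had 11 and 0, and 22Rv1 had 1 and 0. The intronic share of TTN reads with DHT was 4.38% in LTAD PSF-RIP (exact interval 3.83% to 4.98%), 5.19% in the LTAD input (2.998% to 8.30%), 6.92% in LNCaP PSF-RIP (3.50% to 12.04%) and 12.5% in the LNCaP input (2.66% to 32.4%), where 3 of 24 reads were intronic. Of the 362 introns of the complete transcript, 101 held a read in LTAD PSF-RIP with DHT and 1 with vehicle, and 9 held one in LNCaP PSF-RIP with DHT. Per kb, introns held 1.29 reads in LTAD PSF-RIP with DHT, against up to 60.5 in the last exons. These intronic values are upper limits, because the novex-3 exon lies inside an intron of the complete transcript and was counted as intronic. It can hold up to 62 of the 222 reads in LTAD PSF-RIP with DHT, and up to 5 in the LTAD DHT input.

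Of the 10 introns with the most reads, 4 were of TTN and 6 of TTN-AS1. The first, an intron of the N2B, novex-1 and novex-2 transcripts (chr2:179507045-179602808), held 652 reads in LTAD PSF-RIP with DHT and 2 with vehicle, and it spans the I-band exons that the other transcripts use, so its reads are mostly the exonic reads given above. The intron of the N2A transcript around the N2B and novex-3 exons (chr2:179603088-179617850) held 73 and 0 reads, and the one that starts after the N2B exon (chr2:179606649-179617850), which contains the novex-3 exon, held 65 and 0. The fourth, an I-band intron of the N2BA-type and N2A transcripts (chr2:179527783-179534944), held 41 and 0. It spans exons of the complete transcript, so part of its reads can be exonic. The TTN-AS1 introns had reads in both treatments. Its largest, intron 1 of NR_038271 (chr2:179388364-179436026), held 57 with DHT and 47 with vehicle in LNCaP PSF-RIP, 20 and 66 in 22Rv1, and 120 and 100 in LTAD. The next, intron 7 of NR_038272 (chr2:179407089-179447298), which overlaps it, held 41 with DHT and 42 with vehicle in LNCaP, 22 and 60 in 22Rv1, and 100 and 92 in LTAD. Introns 2, 3, 4 and 6 of NR_038271 held at most 69 reads each in a library. In LTAD PSF-RIP with DHT, the 120 reads of intron 1 exceeded the 64 on the exons of NR_038272, although an intron of one TTN-AS1 transcript can hold exons of the other.

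Recovery with PSF was next set against the matching input. The fitted log2 difference of TTN was 1.24 in edgeR (SE 0.15, 12 libraries taken as independent), 1.06 without LTAD and 0.82 in DESeq2. The fit was not paired, and some pairs held almost no TTN reads. The LNCaP vehicle pair had 1 read in PSF-RIP and 0 in input, and the 22Rv1 vehicle pair had 0 in both. In this comparison 58% of 13368 genes were called, 30.5% higher and 27.5% lower. By counting, PSF-RIP over input with DHT was 2.48 in LTAD (95% interval 2.204 to 2.80), 2.19 in LNCaP (1.38 to 3.64) and 1.20 in 22Rv1 (0.119 to 59.1). The LTAD vehicle pair, with 18 reads against 1, gave 2.21 (0.349 to 92.1).

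For TTN-AS1 no difference from its input level passed. Its log2 difference of PSF-RIP against input was 0.04 (edgeR, SE 0.24, 12 libraries, adjusted p = 0.938). The counting ratios ran from 0.683 (0.379 to 1.32) in LTAD with DHT to 1.86 (0.446 to 16.6) in 22Rv1 with vehicle. The plus strand of TTN as a whole gave 0.968 (0.692 to 1.39) in LTAD with DHT and 1.66 (1.06 to 2.77) with vehicle.

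Other long genes give the scale for the recovery of TTN. Of the 20 other genes with the longest exonic length past edgeR's filter, 13 were called higher in PSF-RIP and 3 lower, where 30.5% and 27.5% of all genes were called, with a median log2 difference of 0.84, against 0.05 over all genes. RNF213, a giant ubiquitin ligase, was higher by 1.05 (SE 0.11, adjusted p = 6.88e-08). LPP, a focal adhesion protein gene, was lower by 1.08 (log2 difference -1.08, SE 0.09, adjusted p = 3.70e-09), and the nuclear paraspeckle RNA NEAT1 was also lower (log2 difference -0.99, SE 0.10, adjusted p = 3.94e-08). TTN lay within the range of these genes. With DHT in PSF-RIP, none of the 20 was called higher and ADGRV1 was called lower (log2 difference -0.63, SE 0.15, edgeR adjusted p = 0.0410). Of all genes 1.5% were called higher and 1.39% lower, so 20 genes are too few to differ clearly from those shares. The median of the 20 was -0.18 against -0.04 over all genes.

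**Figure D3:**
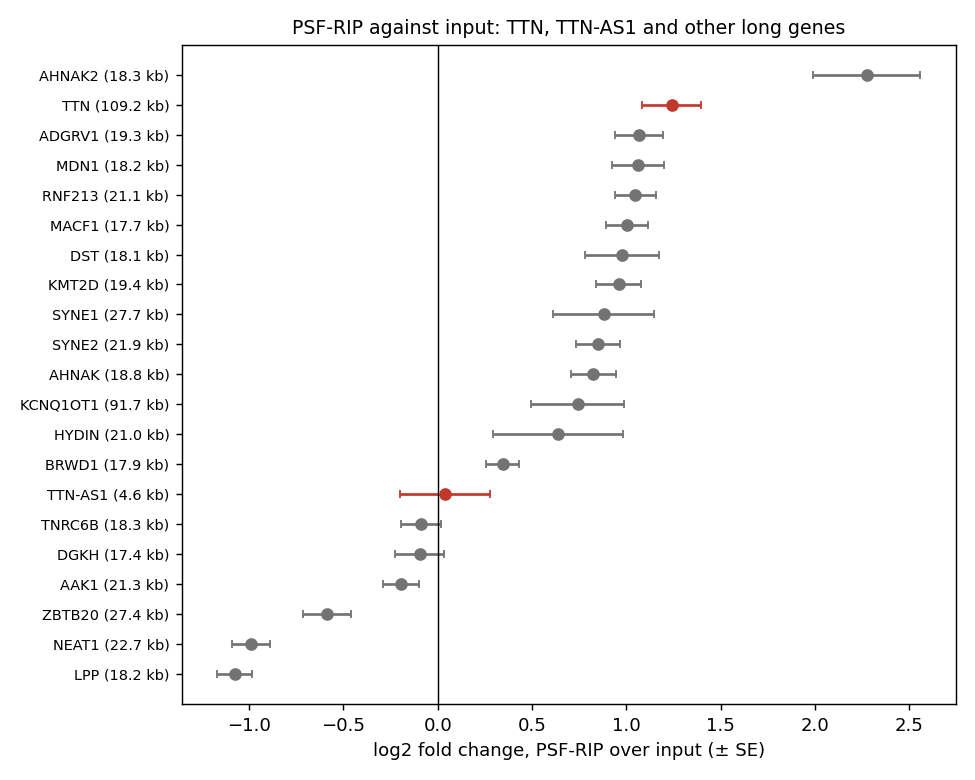
Log2 fold change of PSF-RIP over input (edgeR, bars ± SE over the 12 libraries) for TTN and TTN-AS1 in red and other genes of great exonic length in grey, with exonic length in brackets. TTN at 1.24 lies near the top of the long genes and TTN-AS1 at 0.04 near 0.

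The DHT change in PSF-RIP was then set against that in the inputs. The difference between the DHT response in PSF-RIP and that in the inputs was -0.45 on the log2 scale for TTN-AS1 (SE 0.50, edgeR adjusted p = 1.000). For TTN the fitted difference was 0.10 in edgeR and 1.00 in DESeq2, values that rest on 1 vehicle input read. No gene passed this test (0% of 13776) in edgeR or DESeq2, and 225 had an unadjusted edgeR p under 0.05. In LTAD the DHT ratio in PSF-RIP divided by that in the inputs was 1.12 for TTN, with an exact 95% interval of 0.0268 to 7.15, because the vehicle input held 1 read. For TTN-AS1 it was 0.604 (0.205 to 1.66).

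No PSF-CLIP peak lay in TTN or TTN-AS1. CLIP cross-links protein to RNA before the pull-down, and the 4 LNCaP lists, called per library by the authors, held 23580 and 13546 peaks with DHT and 24242 and 7691 with vehicle. At the chromosome 2 peak density of each list, a stretch as long as TTN would hold 2.12 and 1.19 peaks with DHT and 2.12 and 0.644 with vehicle. LNCaP is the line in which TTN had 148 reads in PSF-RIP with DHT, against 4846 in LTAD, for which no CLIP list was used here. The nearest peak was in the vehicle list 1, 16577 bases beyond the 3′ end of TTN and in no gene (chr2:179373964-179374140, authors' score 84.5). The next was in PLEKHA3 in the DHT list 1, 38846 bases away (chr2:179351655-179351871, score 69.5). On the 5′ side, 2 peaks lay within CCDC141 in the DHT list 2 (chr2:179712021-179712174, score 67.9, and chr2:179788029-179788132, score 69.2).

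CCDC141 was the only neighbour within 500 kb called with DHT. It encodes a coiled-coil protein and lies 22334 bases upstream of TTN on the same strand (chr2:179694484-179914786). In PSF-RIP it had 29 reads with DHT and 1 with vehicle in LNCaP, 0 and 0 in 22Rv1, and 424 and 1 in LTAD. In the inputs it had 6 reads with DHT and 0 with vehicle in LNCaP, none in 22Rv1, and 53 and 1 in LTAD. The DHT library was the higher one in LNCaP and LTAD in both assays, and 22Rv1 had no read. The edgeR log2 increase in PSF-RIP was 7.08 (SE 0.52, adjusted p = 0.000121), which ranked 2 after TTN. This value rests on LNCaP and LTAD alone, because 22Rv1 gave no response to measure. CCDC141 passed the filter on low counts through its DHT reads, as each vehicle library held at most 1 read. The ratio in LTAD PSF-RIP was 340, with an interval of 60.7 to 13451.

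Within CCDC141 the reads lay toward TTN. In LTAD PSF-RIP with DHT, introns 1 to 16 of NM_173648 as numbered in the files, which are the 3′ ones nearer TTN (chr2:179699168-179770055), held 63 reads and 1 with vehicle. The listed introns 17 and up, toward its 5′ end (chr2:179783635-179912010), held 0 with DHT and 1 with vehicle. On exons, the full transcript NM_173648 had 424 reads in 9127 bases with DHT, and NM_001316745, which lacks the 3′ part (chr2:179737748-179914786), had 74 in 6960 bases. In GENCODE v44 lifted to this build, one TTN transcript, TTN-205, starts at chr2:179695529, inside the 3′ end of CCDC141.

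No other tested neighbour was called. Of the 10 besides CCDC141, 7 were tested and none was called with DHT in PSF-RIP or in the inputs. Of all genes 2.9% and 0.624% were called, so few calls among 7 genes would be looked for. The log2 differences were -0.19 to 0.01 in PSF-RIP, and -0.93 (OSBPL6) to 0.66 (FKBP7) in the inputs. PLEKHA3, the next tested gene on the 3′ side, encodes a lipid-binding adaptor of the Golgi and had 162 reads with DHT and 126 with vehicle in LTAD PSF-RIP. SESTD1, beyond CCDC141, had 188 and 168. PRKRA, which encodes an activator of the kinase PKR, had 114 and 98. PDE11A, DFNB59 and LOC101927055 were too low for the filter, and the last, a transcript inside TTN on the plus strand, had 1 read in all, in LTAD vehicle PSF-RIP.

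**Figure D4:**
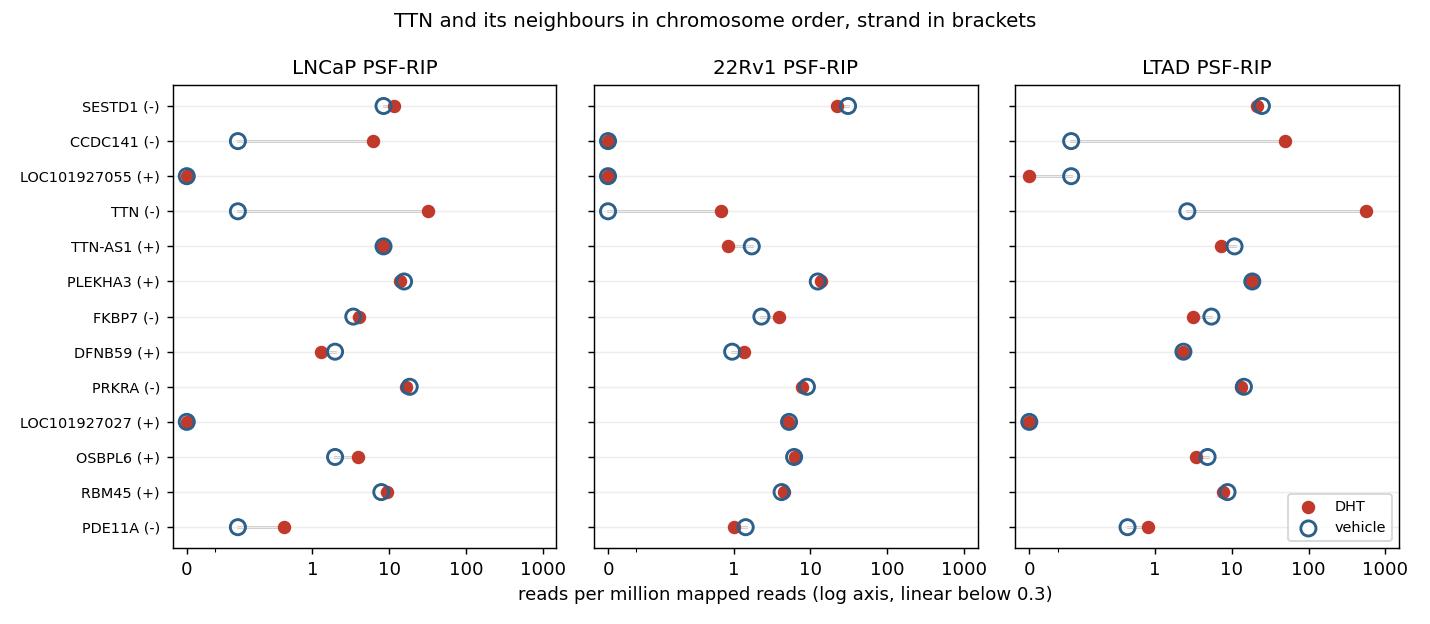
RPM in PSF-RIP for TTN, TTN-AS1 and the 11 other genes within 500 kb, in chromosome order from bottom to top, in the 3 lines, with DHT as filled red points and vehicle as open blue circles. In LTAD, TTN stands at 558 with DHT and 2.65 with vehicle and CCDC141 at 48.8 and 0.147, and the other pairs of points lie close together.

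Across the genome, the 5 genes whose log2 CPM followed TTN most closely over the 12 libraries were CCDC141 (Pearson r = 0.975), PAK1IP1 (0.971), TBC1D1 (0.951), ATMIN (0.945) and SLC41A1 (0.944), as a description over libraries that share lines and treatments. PAK1IP1, which encodes a ribosome biogenesis factor, had 854 reads with DHT and 141 with vehicle in LTAD PSF-RIP, 198 and 97 in LNCaP, and 100 and 121 in 22Rv1. SLC41A1, a magnesium transporter gene on the androgen-induced list, had 8404 and 1506 in LTAD, 1771 and 1144 in LNCaP, and 1127 and 1379 in 22Rv1. Both were thus highest in LTAD with DHT. In 22Rv1 their raw reads were lower with DHT than with vehicle, but the vehicle library was the deeper one, so raw reads give no direction there.

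Androgen-induced genes rose in the same libraries. Of 42 listed genes, 40 were in the files and all 40 were tested. In PSF-RIP 29 were called higher and 0 lower, where 1.5% and 1.39% of all genes were called, with a median log2 difference of 1.44 against -0.04 over all genes, and in the inputs 12 were called higher and 0 lower, where 0.436% and 0.189% of all genes were called, with a median of 1.37 against -0.02. FKBP5, a steroid-induced chaperone, had 1657 reads with DHT and 262 with vehicle in LNCaP PSF-RIP, 9536 and 2057 in 22Rv1, and 7694 and 421 in LTAD, an edgeR log2 increase of 3.23 (SE 0.22, adjusted p = 2.12e-05). SLC45A3 rose by 2.33, GREB1 by 2.38 and MBOAT2 by 2.38 on the log2 scale, with edgeR adjusted p of 4.29e-05, 7.37e-05 and 0.000408. KLK3, which encodes prostate-specific antigen, had 3809 and 549 reads in LNCaP, 228 and 322 in 22Rv1, and 57 and 14 in LTAD. Scaled to mapped reads, KLK3 in 22Rv1 stood at 38.7 RPM with DHT and 30.8 with vehicle. It did not pass over the lines (log2 difference 1.72, SE 0.54, edgeR adjusted p = 0.112). The order of lines thus differed between genes, with KLK3 highest in LNCaP, FKBP5 high in all 3 and TTN highest in LTAD. SFPQ, the gene of PSF itself, had a DHT difference of 0.02 (SE 0.10, edgeR adjusted p = 0.941).

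Titin's partners in the sarcomere mostly fell below the filter on low counts. Of 65 listed genes, 54 were in the files and 18 passed the filter on low counts. In PSF-RIP with DHT, 1 was called higher, where 1.5% of all genes were, and 0 lower, with a median log2 difference of 0.10 against -0.04 over all genes, and the same gene was the 1 called higher in the inputs, where 0.436% of all genes were. It was TPM1, a tropomyosin made in many cell types, which rose by 1.06 in PSF-RIP (SE 0.17, edgeR adjusted p = 0.00607) and by 1.04 in the inputs (adjusted p = 0.0322). TPM1 had 935 reads with DHT and 288 with vehicle in LTAD PSF-RIP, 877 and 604 in 22Rv1, and 310 and 258 in LNCaP. PDLIM5, MYBPC1 and SMYD2 came next by p and did not pass, with log2 differences of 0.61, 0.82 and -0.58 and edgeR adjusted p of 0.109, 0.219 and 0.240. MYBPC1, a myosin-binding protein of slow muscle, had 8 reads with DHT and 0 with vehicle in LTAD PSF-RIP and 487 and 535 in 22Rv1, the reverse of titin's order of lines.

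Markers of striated muscle were checked as a group. Their summed level was 16.4 to 73.3 CPM (scaled as RPM, but to the summed gene counts) in the DHT and 30.1 to 67.7 in the vehicle PSF-RIP libraries, and 41.8 to 112 in the DHT and 44.7 to 105 in the vehicle inputs. Of 13 listed, MYH1, MYH2 and MYOG had no read in any library. CKM and DES had 1 read each in the 12 libraries, and MYH7 had at most 1 read in a library. MB, which encodes myoglobin, made most of the sum, with 70 to 499 reads per PSF-RIP library. In the LTAD DHT PSF-RIP library, with 4846 titin reads, ACTA1 and DES had 0 reads, CKM and MYH7 had 1 each, and NEB, which encodes the giant thin-filament protein nebulin, had 19, against 15 with vehicle. Smooth muscle and stroma markers summed to 32.7 to 48.7 CPM with DHT and 31.4 to 47.8 with vehicle in PSF-RIP, and 12.9 to 32.3 and 22.7 to 25.8 in the inputs. Leukocyte markers summed to 2.63 to 9.26 CPM with DHT and 2.63 to 24.1 with vehicle in PSF-RIP, and CD3E had no read. The part of other cell types in the titin result was not tested beyond these levels.

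Recovery of the sarcomere list with PSF gave shares near those of all genes. Of 14 members tested, 4 were called higher in PSF-RIP than in input and 4 lower, where 30.5% and 27.5% of all genes were called, with a median of -0.01 against 0.05 over all genes. Among those higher were OBSL1 (1.68, SE 0.34, edgeR adjusted p = 0.000284), ANKRD23 and MYBPC1, and those lower were TPM3 (-0.46, SE 0.09, adjusted p = 0.000204), PDLIM5 (-0.65, SE 0.13, adjusted p = 0.000229), TPM1 and TNNT1.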

How the data were processed

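The RIP-seq tables give, as deposited by the authors, raw whole-number counts, with no scaling, of reads that mapped uniquely to each RefSeq transcript, its introns, its opposite strand and the gaps between genes on hg19. Features without a read are not listed. TopHat2 2.1.0, Bowtie2 2.2.6 and Bowtie are named in the submitters' processing notes without a role. The CLIP lists hold a score for every peak, which the authors deposited; the caller is not given in the sources used here. A gene was represented by its transcript row with the highest mean count, and symbols with the same strand and with starts, ends and lengths at most 5 bp apart were merged, which left 20239 genes. One fit over the 12 libraries (edgeR 4.0.16 quasi-likelihood, R 4.3.3, TMM, filterByExpr) carried a line effect and a treatment effect within each assay. PSF-RIP against input used additive line, treatment and assay terms. Calls were at adjusted p under 0.05, Benjamini-Hochberg over all genes tested, and SEs are the log2 difference over the root of the F statistic. The fit was tested on simulated counts. DESeq2 1.42.0, no filter, the longest transcript and leaving out each line were tried. Ratios of reads use TMM-scaled library sizes with exact 95% intervals, which cover counting error only; reads are not independent molecules. Exon coordinates are from GENCODE v44 lifted to GRCh37. Likeness used log2 CPM with a prior count of 2.

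Named were both genes in every comparison, every transcript, the 10 introns with most reads, the 5 genes most like TTN, neighbours within 500 kb, at most 4 genes of smallest p of each list, and KLK3, FKBP5 and SFPQ; ANKRD23, MYBPC1, TPM1 and TNNT1 under PSF-RIP against input, MB and the other muscle markers were named after their values were seen. Some genes that this rule takes are not reported here. The members and lists were chosen with earlier results of these data known. A second LNCaP set of 4 RIP-seq samples, whose labels conflict over the assay, and the 12 value columns of 2 tables that matched no sample were not used. For the replicate block, an input and a PSF-RIP library were paired through their shared cell line and treatment in the labels.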

Additional observations from a re-analysis of the deposited data

Results flagged for a closer look

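The intergenic interval between TTN and CCDC141 (chr2:179672151-179694483) enters no comparison above, and it held reads with DHT that the vehicle libraries lacked. On the minus strand it had 65 reads with DHT and 0 with vehicle in LTAD PSF-RIP, 4 and 0 in the LTAD inputs, 3 and 0 in LNCaP PSF-RIP, and 1 and 0 in the LNCaP inputs. Against a floor of 3 reads in the vehicle library, LTAD PSF-RIP was at least 17.4-fold higher with DHT. The density there was 2.91 reads per kb, against 1.29 per kb in the introns of TTN in the same library, a count that includes the novex-3 exon. The plus strand had 1 read in the 12 libraries.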

How the results depend on the processing

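TTN stayed higher with DHT in PSF-RIP in every alternative, with log2 increases of 6.94 to 7.71 when a line was left out, as a description. Its ratio in the inputs was at least 7.86 without LTAD and up to 267 when another line was left out. For the difference between assays, TTN was at -0.77 without LTAD, leaving out a line gave -0.77 to 0.22, and DESeq2 gave 1.00, against 0.10. TTN in PSF-RIP against input was 0.82 in DESeq2, against 1.24 in edgeR. With the replicate block, run for PSF-RIP against input alone, TTN was at 1.26 and TTN-AS1 at 0.03, again not called. TTN-AS1 in PSF-RIP against input was -0.20 in the 6 DHT libraries alone, an alternative chosen after seeing the data, and -0.10 to 0.24 when a line was left out. Genes called with DHT in PSF-RIP numbered 399, 948 without a filter and 94 to 455 when a line was left out. In the inputs they numbered 86, 397 without a filter, 143 in DESeq2 and 24 to 122 when a line was left out. Scaled to nuclear exon reads, TTN was 668 RPM in LTAD DHT PSF-RIP, 256 in the LTAD DHT input and 40.4 in LNCaP DHT PSF-RIP, against 558, 184 and 31.9 RPM on mapped reads. The CLIP count of 0 could not change with peaks above the median score of each list, because the full lists held no peak there. The overlap choice likewise had nothing to act on. The cause of the shifts between settings was not tested. The vehicle inputs, with 1 TTN read in all, limit what the inputs can show.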
